A study of Mus musculus with 9 samples.

Results

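The transcription factor ATF4 directs the amino acid stress response, and 41 of its reported target and partner genes were followed here in microglia exposed to glioma-conditioned medium (GCM). The genes were picked by name, and a gene was represented by the brightest of the probe sets annotated to its symbol alone. They were chosen with earlier results of these data known, so their contrast with all genes is not an independent result. Of the 41 genes, 37 were measured among 17097 genes in all. Mthfd2, Pycr1, Slc1a4 and Tars1 were not analysed here. The cells were primary microglia shaken off cortical cultures of P0-P2 C57BL/6J mice, with no transgene and no genetic change named. In 3 samples the medium was replaced for 6 h by GCM from LN18 cells (GCM LN18), in 3 by GCM from U87-MG cells (GCM U87-MG), and 3 samples were left untreated. The media had been conditioned by glioma cells grown in the microglial culture medium with serum. LN18 and U87-MG are human glioblastoma cell lines, so what they secreted into both media was of human origin. The labels do not say whether untreated dishes also received fresh medium, so a change of medium and its conditioning by glioma cells cannot be told apart.

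When a cell runs short of an amino acid, uncharged tRNA activates the kinase GCN2, which phosphorylates the translation factor eIF2. Overall protein synthesis then slows while the Atf4 message is translated more, and ATF4, with partners of the C/EBP family, switches on genes that take up amino acids, make them and load them on tRNAs. The same arm is used by the endoplasmic reticulum (ER) kinase PERK, the haem-regulated kinase HRI and the RNA sensor PKR, and is called the integrated stress response (ISR).

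Each sample was read on its own Affymetrix MG-430 PM strip array, all run together per the methods, and the deposited values are log2 signals of probe sets, on which 1 unit is a 2-fold difference in signal. Array medians lay between 3.39 and 3.41. Of 10 microglial markers 9 were measured, among them Cd68, Trem2, Ptprc and Cx3cr1 at mean log2 signals of 10.87 to 11.64, while the homeostatic markers P2ry12 (3.65) and Tmem119 (4.28) lay below the median gene (4.34). The log2 of the summed marker signal was 13.44 to 13.48 in GCM LN18, 13.38 to 13.47 in GCM U87-MG and 13.20 to 13.29 in untreated arrays. Cx3cr1 was higher in GCM LN18 (limma adjusted p = 0.000459 without and 0.00827 with the replicate number in the model) and in GCM U87-MG (0.0041 and 0.0499). Tmem119 (0.00648 and 0.039) and Aif1 (0.0193 and 0.104) were also higher in GCM LN18. The log2 of the summed signal of 8 astrocyte markers, 7 of them below the median gene, was 6.39 to 6.47, 6.42 to 6.47 and 6.43 to 6.57 in the same order of groups, and all 6 neuronal and all 6 fibroblast markers lay below the median gene. So did 5 of 7 measured oligodendrocyte lineage markers and 3 of 4 endothelial markers, whose brightest members had mean log2 signals of 5.72 and 5.25. Of 4 markers of border macrophages, Mrc1 and Pf4 were bright (9.07 and 9.17), Mrc1 being lower in GCM LN18 (adjusted p = 0.0375 without and 0.182 with the replicate number in the model), and Cd163 and Lyve1 were dim (2.65 and 2.32). The part of these markers in the results was not tested. In RNA from whole cultures, fewer cells of a type and less RNA per cell cannot be told apart.

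In the deposited values, the 3 arrays of each replicate number share 1 mean for 100% of the probe sets, within 1e-06. Only differences among the 3 arrays of a replicate number therefore carry information. The spread of a group's 3 arrays likewise reflects how unequal these differences are over the replicate numbers. It cannot show how far untreated cultures differed from each other. The sources do not say whether a number marks 1 cortical culture in all 3 groups. A model of the 3 group means alone counts 6 residual degrees of freedom, while 4 remain once the replicate number is in the model, so p-values without it are too small. Where 2 adjusted p-values of 1 comparison stand together, the one without the replicate number is first. All standard errors (SE) and 95% intervals given are from the fit without the replicate number, and are too narrow for the same reason. In GCM LN18 the SE of Atf4 is 0.074 without and 0.087 with it.

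Most ATF4 response genes had lower signals in both media. Of the 37 members, 31 had a log2 fold change below 0 in GCM LN18 against untreated microglia and 33 in GCM U87-MG against untreated microglia, where 51.5% and 51.3% of all genes did. Their median log2 fold change was -0.50 in GCM LN18 and -0.47 with GCM U87-MG, and that of all genes was -0.00 in each. All 3 GCM LN18 arrays lay below all 3 untreated arrays for 22 members (12.8% of all genes), and so did all 3 GCM U87-MG arrays for 22 members (10.3% of all genes). For 20 members all 6 GCM arrays lay below the 3 untreated arrays, as they did for 5.29% of all genes. No member lay above the untreated arrays in all arrays of a medium, where 11.1% of all genes did in GCM LN18 and 8.79% with GCM U87-MG. Both media are compared with the same 3 untreated arrays, so the 2 comparisons are not independent of each other.

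**Figure D1:**
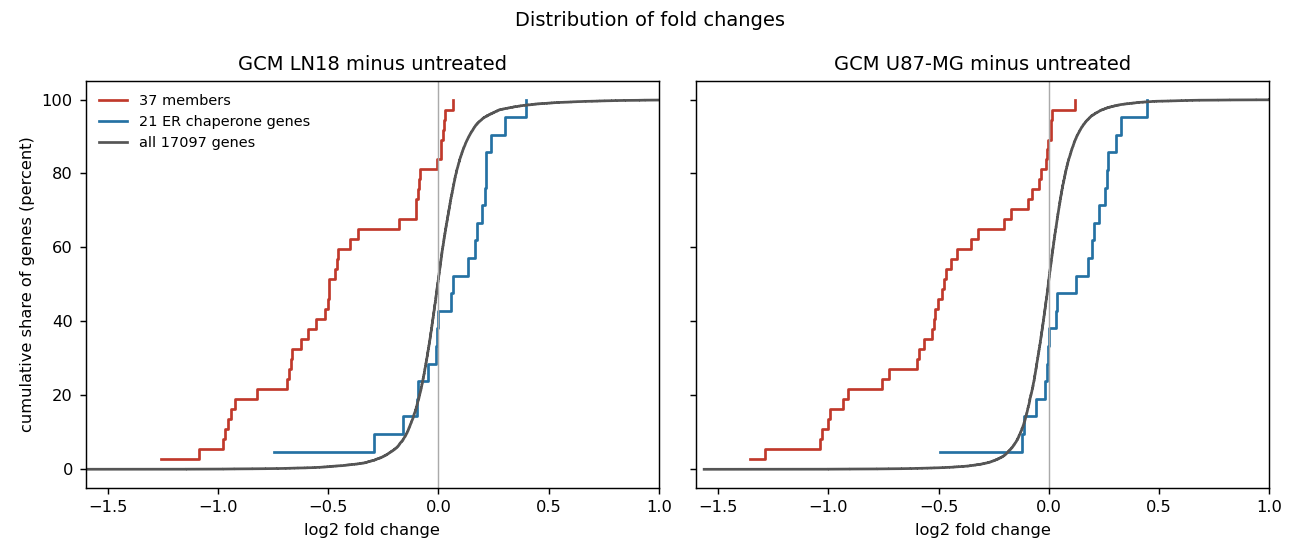
Cumulative share of genes (percent, vertical axis) by log2 fold change (horizontal axis) for each medium against untreated microglia, for the 37 ATF4 response genes (red), 21 ER chaperone genes (blue) and all 17097 genes (grey). The members' curves lie left of the others, with medians of -0.50 and -0.47, while all genes centre on 0.

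By the limma test, 7 of 37 members had lower signals in GCM LN18 (adjusted p under 0.05), where 2.64% of all genes were called lower: Atf4, Ddit3, Ppp1r15a, Chac1, Slc7a1, Slc7a5 and Slc38a2. With the replicate number in the model, 3 of them remained (Atf4, Ddit3 and Slc7a1), where 0.339% of all genes were called lower. In GCM U87-MG 4 members were lower (Atf4, Ddit3, Ppp1r15a and Slc7a1), where 0.708% of all genes were called. None of the 4 passed with the replicate number, nor did any of all genes in that direction, while 22 of 37 members and 1560 of 17097 genes had an unadjusted p under 0.05 there. When the mean of both media was set against untreated microglia, 12 members were lower, against 2.47% of all genes, and 3 were with the replicate number, against 0.304%. Of the 30 members above the median gene level, 7, 4 and 12 were lower in these 3 comparisons without the replicate number. The shares of all genes above that level were 4.67%, 1.18% and 4.38%. No member was called higher in any comparison, where 2.59% of all genes were in GCM LN18, 0.807% in GCM U87-MG and 2.34% in the mean of both.

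Few genes of any kind differed by 2-fold, and several of those that did were members. In GCM LN18, Asns and Phgdh were among the 11 genes of 17097 (0.0643%) with signals at least 2-fold lower. In GCM U87-MG, Asns, Phgdh, Pck2, Trib3 and Atf5 were 5 of the 8 such genes (0.0468%). None of these 5 passed the test in either medium, and their differences from untreated arrays were unequal over the replicate numbers. With equal replicate means, this shows as widely spread untreated arrays. Those of Phgdh read 8.76, 7.69 and 7.24, and those of Trib3 5.83, 5.07 and 4.51.

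ATF4 and C/EBP proteins bind as pairs to a composite site, the C/EBP-ATF response element, known from the promoters of stress-induced genes such as Asns and Chac1. Its core was searched as TGATGNAA, or TTNCATCA on the other strand, in RefSeq windows (GRCm38.p6) from 250 bases before to 50 bases after each start site. Of the 32 measured members with a window, 10 held a match (31.2%), as did 3.27% of the 13605 measured genes with a window and 3.97% of all 32851 windows. Of other reported ATF4 targets 3 of 15 held one (20%), and of other cytosolic tRNA synthetases 2 of 9 (22.2%). In the remaining lists described below the share was 4.17% to 7.14%. The members were picked as reported targets and partners of ATF4, so their share is not an independent result. The matches were in Asns, Chac1, Aars1, Gars1, Atf3, Nupr1, Pck2, Slc7a11, Trib3 and Vldlr. Among members that passed the test as lower in at least 1 comparison, without the replicate number, 4 of 11 held one (36.4%). Among the other members 6 of 21 did (28.6%), among them Trib3, Pck2 and Nupr1, whose mean signals were also lower in both media. The windows of the 4 that passed are shown, Asns, Chac1, Aars1 and Gars1. They passed in the mean of both media without the replicate number, and none did with it. Atf4, Ddit3 and Slc7a1, which passed with it in GCM LN18, had windows without a match. Sites outside the windows were not searched. The matches are in capitals, each sequence reads 5′ to 3′ along its gene's strand, and a match is a description of the letters and not of binding. Asns lies at chr6:7693160-7693459 (minus strand), Chac1 at chr2:119350992-119351291 (plus), Aars1 at chr8:111033592-111033891 (plus) and Gars1 at chr6:55037751-55038050 (plus).
Asns: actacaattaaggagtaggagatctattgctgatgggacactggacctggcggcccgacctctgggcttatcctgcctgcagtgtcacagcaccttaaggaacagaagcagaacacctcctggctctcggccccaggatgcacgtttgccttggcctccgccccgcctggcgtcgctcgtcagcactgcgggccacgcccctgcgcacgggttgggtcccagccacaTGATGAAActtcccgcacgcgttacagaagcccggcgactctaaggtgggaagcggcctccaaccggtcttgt
Chac1: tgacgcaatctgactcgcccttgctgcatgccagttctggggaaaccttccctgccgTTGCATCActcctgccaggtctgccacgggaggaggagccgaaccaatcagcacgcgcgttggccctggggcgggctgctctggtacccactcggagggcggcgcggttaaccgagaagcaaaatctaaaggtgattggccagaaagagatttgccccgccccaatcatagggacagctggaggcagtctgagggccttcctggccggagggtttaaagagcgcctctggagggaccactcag
Aars1: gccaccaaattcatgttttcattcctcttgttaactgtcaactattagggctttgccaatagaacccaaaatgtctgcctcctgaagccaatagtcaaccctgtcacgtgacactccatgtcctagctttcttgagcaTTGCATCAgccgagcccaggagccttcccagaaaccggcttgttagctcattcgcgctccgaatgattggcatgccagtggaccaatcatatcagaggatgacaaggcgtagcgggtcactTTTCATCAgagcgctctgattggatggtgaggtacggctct
Gars1: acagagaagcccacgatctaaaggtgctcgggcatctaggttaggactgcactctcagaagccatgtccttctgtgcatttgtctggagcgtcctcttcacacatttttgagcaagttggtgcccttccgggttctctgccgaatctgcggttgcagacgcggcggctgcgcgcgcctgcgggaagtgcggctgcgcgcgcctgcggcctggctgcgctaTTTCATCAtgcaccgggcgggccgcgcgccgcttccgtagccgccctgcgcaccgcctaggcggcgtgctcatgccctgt

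Asns and Gars1 held 1 match each, at positions -23 and -30 relative to the start site, in the sense and the opposite orientation. Chac1 held 1 match, at position -193. Aars1 held 2, the first of them at position -112, and all 3 in Chac1 and Aars1 read in the TTNCATCA orientation.

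Atf4 itself, the factor of the response, had log2 signals of 9.24, 9.26 and 9.48 on GCM LN18 arrays, 9.29, 9.31 and 9.25 on GCM U87-MG arrays and 9.97, 9.92 and 9.76 on untreated arrays (probe set 1448135_PM_at). Every GCM array lay below every untreated array, and the GCM U87-MG arrays lay close together. In GCM LN18, Atf4 fell by 0.56 log2 units (SE 0.07, n = 3 per group, limma adjusted p = 0.00464 without and 0.0377 with the replicate number), which is 1.47-fold. In GCM U87-MG its log2 fold change was -0.60 (SE 0.07, adjusted p = 0.0107 without and 0.0838 with the replicate number). Since ATF4 is controlled mainly by translation, these values describe its mRNA and not the protein.

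Ddit3 encodes CHOP, a C/EBP-family factor that ATF4 induces under lasting stress. Its signals were 6.48, 6.62 and 6.83 on GCM LN18 arrays, 6.81, 6.94 and 6.88 on GCM U87-MG arrays and 7.70, 7.42 and 7.28 on untreated arrays (probe set 1417516_PM_at). All 6 GCM arrays lay below the untreated ones. Ddit3 fell by 0.82 in GCM LN18 (SE 0.11, adjusted p = 0.00546 without and 0.0354 with the replicate number), and its log2 fold change in GCM U87-MG was -0.59 (SE 0.11, adjusted p = 0.0459 without and 0.207 with the replicate number).

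Of the 8 transcription factors and regulators, Atf4 and Ddit3 were the 2 that passed the test. Trib3, a pseudokinase that restrains ATF4, Atf5, a related stress factor, and Nupr1, a stress-induced chromatin protein, had log2 fold changes of -0.98, -0.97 and -0.69 in GCM LN18 and -1.03, -1.0 and -0.76 in GCM U87-MG, with adjusted p from 0.0959 to 0.155. None passed the test. Signals of Atf3, Cebpb and Cebpg, transcription factors that can pair with ATF4, differed by no more than 0.10 in either medium.

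The feedback genes were divided. Ppp1r15a, which encodes GADD34, the subunit that leads a phosphatase back to eIF2 and ends the response, had signals of 5.08, 5.19 and 5.29 on GCM LN18 arrays, 5.18, 5.10 and 5.25 on GCM U87-MG arrays and 5.75, 5.73 and 5.47 on untreated arrays. No GCM array reached the untreated ones, and the log2 fold changes were -0.46 in GCM LN18 (SE 0.08, adjusted p = 0.0155 without and 0.0793 with the replicate number) and -0.47 in GCM U87-MG (SE 0.08, adjusted p = 0.0339 and 0.190). Chac1, an enzyme that breaks down glutathione, had signals of 4.34, 4.46 and 4.86 on GCM LN18 arrays, 4.41, 4.38 and 4.71 on GCM U87-MG arrays and 5.79, 5.71 and 4.98 on untreated arrays. Here the third untreated array lay only just above the highest GCM array. The log2 fold change of Chac1 was -0.94 in GCM LN18 (SE 0.21, adjusted p = 0.0378 without and 0.120 with the replicate number) and -0.99 in GCM U87-MG (SE 0.21, adjusted p = 0.0610 and 0.231). The other 4 genes of this group, Sesn2, Ddit4, Stc2 and Vldlr, had log2 fold changes between -0.32 and 0.12, and none passed. Ddit4, Stc2 and Vldlr were among the 7 members at or below the median gene level.

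The enzymes that make amino acids held the members with the lowest fold changes, Asns and Phgdh. Asns, asparagine synthetase, a standard readout of amino acid shortage, had signals of 7.33, 8.26 and 7.96 on GCM LN18 arrays, 7.62, 7.44 and 8.20 on GCM U87-MG arrays and 9.76, 9.01 and 8.55 on untreated arrays (probe set 1451095_PM_at). All GCM arrays lay below all untreated ones. The untreated arrays spanned more than 1 log2 unit, as the differences from GCM arrays were unequal over the replicate numbers. Its log2 fold change was -1.26 in GCM LN18 (SE 0.34, adjusted p = 0.0671 without and 0.185 with the replicate number), -1.35 in GCM U87-MG (SE 0.34, adjusted p = 0.0906 and 0.313) and -1.30 for the mean of both (SE 0.29, adjusted p = 0.0387 and 0.121). Asns thus had the fifth lowest fold change of all genes in GCM LN18 and the second lowest in GCM U87-MG.

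Serine synthesis runs from Phgdh over Psat1 to Psph, and Shmt2 passes the carbon of serine into the mitochondrial folate cycle. All 4 genes had lower mean signals in both media, and none passed the test. Psph had signals of 6.48, 7.12 and 6.88 on GCM LN18 arrays, 6.45, 6.41 and 6.88 on GCM U87-MG arrays and 7.97, 7.36 and 7.14 on untreated arrays. Shmt2 had 5.46, 5.82 and 5.91 on GCM LN18 arrays, 5.69, 5.69 and 5.80 on GCM U87-MG arrays and 6.53, 6.18 and 5.98 on untreated arrays. In neither gene did a GCM array reach the untreated ones, with differences for the mean of both media of -0.79 for Psph (SE 0.20, adjusted p = 0.0585 without and 0.176 with the replicate number) and -0.50 for Shmt2 (SE 0.13, adjusted p = 0.0578 and 0.178). Phgdh had log2 fold changes of -1.08 in GCM LN18 and -1.29 with GCM U87-MG (SE 0.38 each), and Psat1 -0.50 and -0.52 (SE 0.17).

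Aldh18a1, which starts proline synthesis, gave dim signals of 3.84, 4.27 and 4.14 on GCM LN18 arrays, 4.09, 3.80 and 4.06 on GCM U87-MG arrays and 4.59, 4.45 and 4.31 on untreated arrays. No GCM array overlapped the untreated ones, and the difference for the mean of both media was -0.42 (SE 0.10, adjusted p = 0.0578 without and 0.184 with the replicate number). Pck2, the mitochondrial enzyme that turns oxaloacetate into phosphoenolpyruvate, and Gpt2, which makes alanine, had log2 fold changes of -0.96 and -0.67 in GCM LN18 and -1.04 and -0.41 in GCM U87-MG, none past the test. Cth and Cbs, which turn homocysteine into cysteine, were dim (mean log2 signals 2.93 and 3.20) and differed by at most 0.10.

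The 7 measured amino acid transporters were mixed, with 3 lower in GCM LN18 (2.64% of all genes) and 1 lower with GCM U87-MG (0.708% of all genes). Slc7a1, the CAT1 carrier of arginine and lysine, had signals of 7.37, 7.52 and 7.53 on GCM LN18 arrays, 7.57, 7.57 and 7.75 on GCM U87-MG arrays and 8.31, 8.16 and 7.97 on untreated arrays (probe set 1454991_PM_at). No GCM array reached the untreated ones. Slc7a1 fell by 0.68 in GCM LN18 (SE 0.09, adjusted p = 0.00436 without and 0.0318 with the replicate number), and its log2 fold change in GCM U87-MG was -0.52 (SE 0.09, adjusted p = 0.0309 and 0.174). A second Slc7a1 probe set gave -0.57 in GCM LN18 and -0.46 with GCM U87-MG, and a dim one gave 0.05 and 0.15.

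Slc7a5 encodes LAT1, which brings in leucine and other large amino acids in exchange for glutamine. It had signals of 5.51, 5.96 and 6.01 on GCM LN18 arrays, 5.65, 5.77 and 6.05 on GCM U87-MG arrays and 7.25, 6.67 and 6.34 on untreated arrays. All GCM arrays lay below the untreated ones, with log2 fold changes of -0.92 in GCM LN18 (SE 0.22, adjusted p = 0.0458 without and 0.142 with the replicate number) and -0.93 in GCM U87-MG (SE 0.22, adjusted p = 0.0799 and 0.285). Slc3a2, the heavy chain that LAT1 needs at the membrane, was chosen for its array values after they were seen. It had 9.43, 9.78 and 9.69 on GCM LN18 arrays, 9.44, 9.80 and 9.66 on GCM U87-MG arrays and 10.01, 9.31 and 9.54 on untreated arrays. These overlapped widely, and the log2 fold change was 0.01 in each medium, with a 95% interval of -0.37 to 0.40 in GCM LN18 and -0.37 to 0.39 in GCM U87-MG.

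Slc38a2, the SNAT2 carrier of small neutral amino acids, is also raised by salt stress. Its signals were 9.26, 9.27 and 9.28 on GCM LN18 arrays, 9.53, 9.78 and 9.43 on GCM U87-MG arrays and 9.84, 9.58 and 9.93 on untreated arrays. The GCM LN18 arrays lay below all untreated arrays and the GCM U87-MG arrays overlapped them. The log2 fold change was -0.51 in GCM LN18 (SE 0.10, adjusted p = 0.0242 without and 0.0953 with the replicate number) and -0.20 in GCM U87-MG (SE 0.10, adjusted p = 0.347 and 0.662). Slc7a11, the cystine carrier, was dim, with log2 fold changes of -0.40 and -0.35 in the same 2 comparisons, and Slc1a5 and Slc6a9, carriers of glutamine and of glycine, differed by at most 0.09.

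The tRNA synthetases join amino acids to their tRNAs. Of the 6 measured, 5 were lower in the mean of both media (2.47% of all genes) and none was with the replicate number in the model (0.304% of all genes). Aars1 (alanine) had signals of 8.18, 8.65 and 8.53 on GCM LN18 arrays, 8.23, 8.28 and 8.53 on GCM U87-MG arrays and 9.46, 8.95 and 8.82 on untreated arrays. Gars1 (glycine) had 8.48, 8.80 and 8.78 on GCM LN18 arrays, 8.64, 8.54 and 8.78 on GCM U87-MG arrays and 9.41, 9.18 and 8.96 on untreated arrays. In both genes all GCM arrays lay below the untreated ones and the first untreated array was the highest of all. Nars1 (asparagine) had 9.43, 9.74 and 9.70 on GCM LN18 arrays, 9.50, 9.63 and 9.70 on GCM U87-MG arrays and 10.40, 9.96 and 9.93 on untreated arrays. Sars1 (serine) had 8.44, 8.82 and 8.83 on GCM LN18 arrays, 8.65, 8.62 and 8.90 on GCM U87-MG arrays and 9.61, 9.27 and 8.99 on untreated arrays. Eprs1, which charges both glutamate and proline, had 8.51, 8.75 and 8.83 on GCM LN18 arrays, 8.62, 8.74 and 8.76 on GCM U87-MG arrays and 9.42, 9.07 and 8.96 on untreated arrays. Again no GCM array reached an untreated one.

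For the mean of both media the differences were -0.67 for Aars1 (SE 0.15), -0.51 for Gars1 (SE 0.11), -0.48 for Nars1 (SE 0.11), -0.58 for Sars1 (SE 0.14) and -0.45 for Eprs1 (SE 0.10). Their limma adjusted p-values lay between 0.0283 (Gars1) and 0.0482 (Sars1) without the replicate number and between 0.108 (Gars1) and 0.153 (Sars1) with it. In the single media their log2 fold changes lay between -0.72 and -0.44 and none passed. Wars1, the tryptophan enzyme, which interferons also induce, had -0.09 in GCM LN18 and -0.17 with GCM U87-MG.

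**Figure D2:**
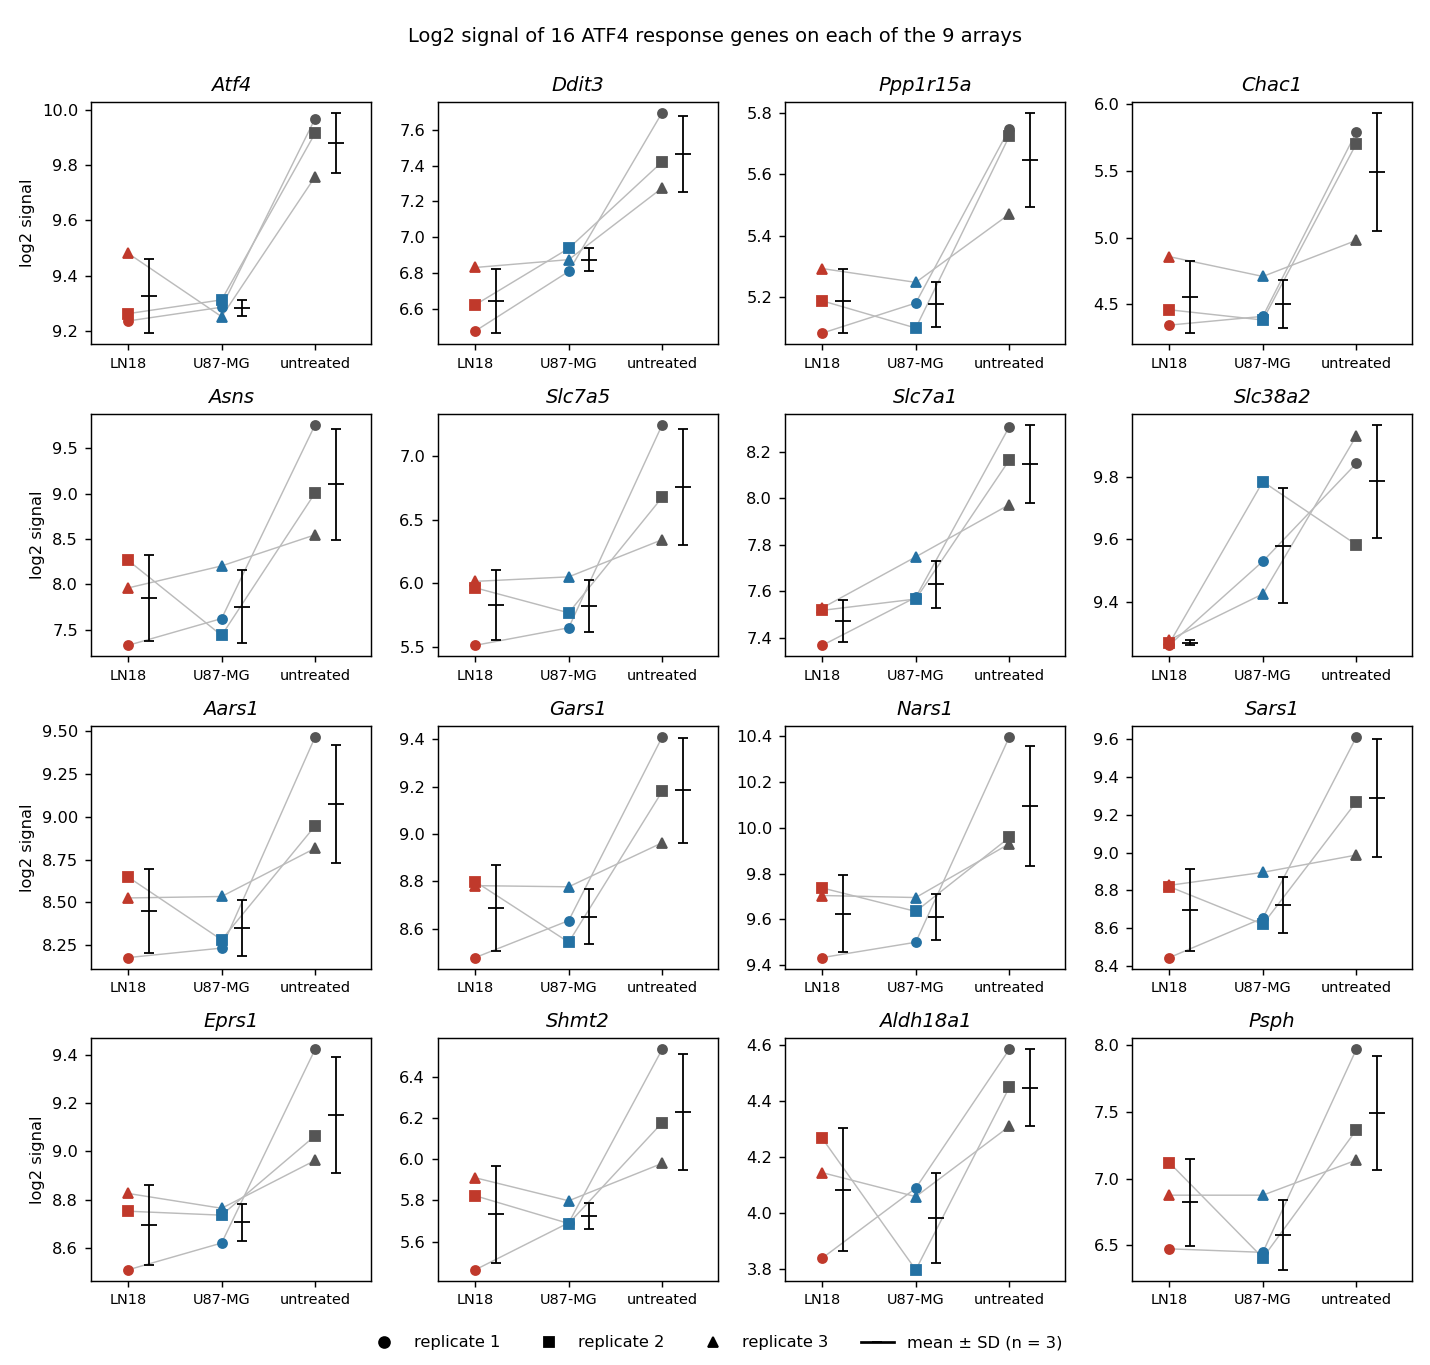
Log2 signal (vertical axis, scaled per gene) of 16 ATF4 response genes on the 3 GCM LN18, 3 GCM U87-MG and 3 untreated arrays, with symbols for replicates 1 to 3, grey lines joining arrays of 1 replicate number and bars for mean ± SD (n = 3). In 15 of the genes all 6 GCM arrays lie below the untreated ones, and in Slc38a2 the GCM U87-MG arrays overlap them. Of all genes, 5.29% had all 6 GCM arrays below. All 16 passed the test or were picked by small unadjusted p-values, so this count is not an independent result.

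The size of the differences was not the same in the 3 replicate numbers. Within replicate 1, the members' median difference was -0.93 in GCM LN18 against untreated, and 16 of 37 members were at least 2-fold lower, as 0.392% of all genes were. Within replicate 2 the median was -0.31 with 1 such member (0.123% of all genes), and within replicate 3 it was -0.12 with none (0.0526%). In GCM U87-MG the medians were -0.77, -0.48 and -0.18 in replicates 1, 2 and 3, with 11, 3 and 0 members at least 2-fold lower, against 0.374%, 0.0877% and 0.0351% of all genes. The direction was shared, with 30, 31 and 28 members below 0 in GCM LN18 and 32, 29 and 29 in GCM U87-MG, while the median of all genes lay close to 0 in each. Across all genes the SD of these differences was 0.246, 0.203 and 0.187 in GCM LN18 and 0.234, 0.203 and 0.175 in GCM U87-MG, so differences in replicate 1 spread somewhat more widely in general.

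Single members show the pattern. The differences of Asns were -2.44, -0.75 and -0.59 in GCM LN18 and -2.14, -1.57 and -0.34 in GCM U87-MG, in replicates 1, 2 and 3. Phgdh had -2.41, -0.60 and -0.24 in GCM LN18 and -2.55, -1.15 and -0.16 in GCM U87-MG. Trib3 had -2.05, -0.81 and -0.08 in GCM LN18. In these 3 genes the difference was largest in replicate 1 and smallest in replicate 3. Slc7a11 was lower in replicate 1 alone, with -1.34, 0.07 and 0.07 in GCM LN18. Atf4 was steadier, with -0.73, -0.65 and -0.28 in GCM LN18 and -0.68, -0.60 and -0.51 in GCM U87-MG. The lowest of a member's 3 differences was that of replicate 1 in 29 of 37 members in GCM LN18 (78.4%) and in 26 of 37 in GCM U87-MG (70.3%), against 34.2% and 33.6% of all genes. Because both media share the untreated array of a replicate number, these counts are not independent of each other.

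When all 3 arrays of replicate 1 were left out, a choice made after these values were seen, no member passed the test in any comparison, and the members' median log2 fold change was -0.23 in GCM LN18 and -0.31 with GCM U87-MG. The share of all genes called lower was also smaller, at 0.339% in GCM LN18, 0.0117% in GCM U87-MG and 0.158% in the mean of both. Without replicate 2, 1 member passed in GCM LN18 (0.591% of all genes) and none in GCM U87-MG (0.135%). Without replicate 3, 5 passed in GCM LN18 (0.333% of all genes) and 2 in GCM U87-MG (0.0643%). What set the first replicate apart was not tested.

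**Figure D3:**
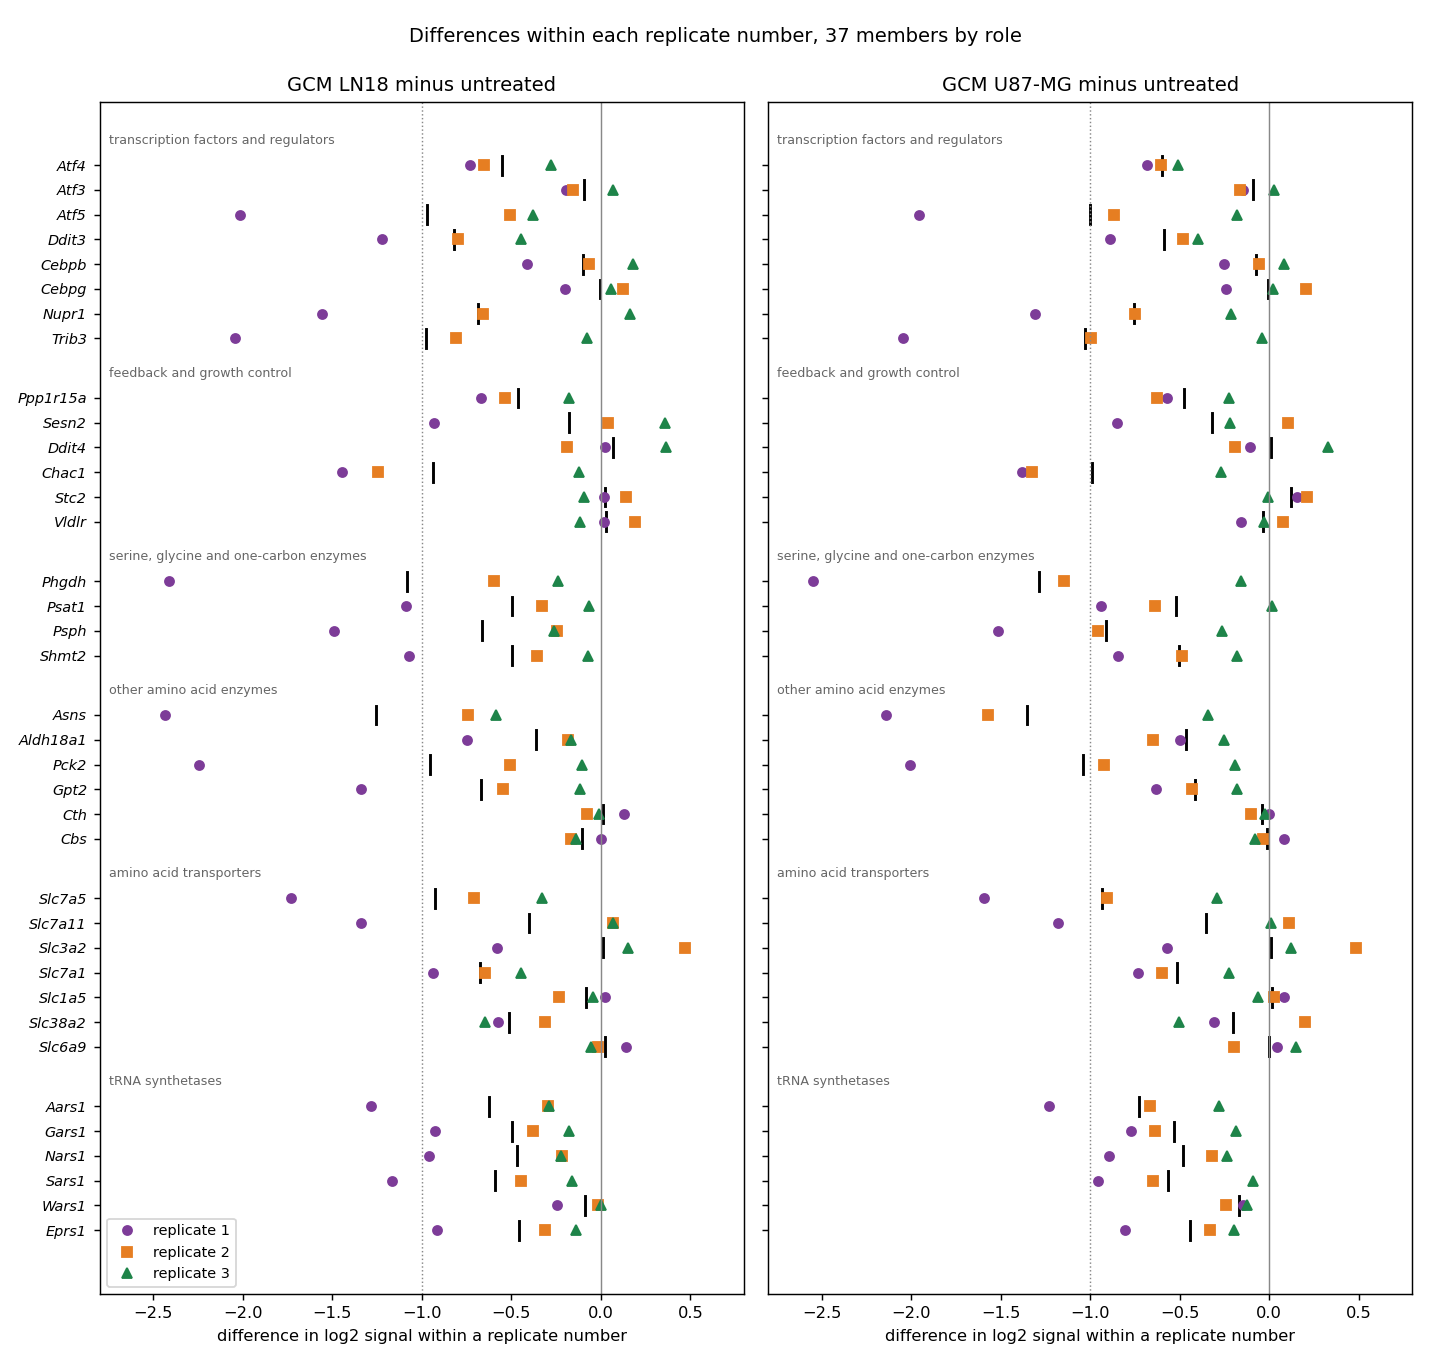
Difference in log2 signal between a GCM array and the untreated array of the same replicate number (horizontal axis) for the 37 ATF4 response genes in 6 groups by role, in GCM LN18 (left) and GCM U87-MG (right). Purple circles, orange squares and green triangles are replicates 1, 2 and 3, black bars are their mean, and the dotted line marks 2-fold lower, which 16 members in GCM LN18 and 11 with GCM U87-MG reach in replicate 1 and none in replicate 3.

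The 2 media were also compared directly. No member differed between GCM LN18 and GCM U87-MG by the limma test at an adjusted p under 0.05, where 0.00585% of all genes did, and 1 of the 37 members had an unadjusted p under 0.05. That member was Slc38a2, 0.31 lower on the log2 scale in GCM LN18 than in GCM U87-MG (95% interval of the log2 fold change -0.54 to -0.08, adjusted p = 0.309). The members' median log2 fold change between the media was 0.03, within a range of -0.31 to 0.25. For Asns the interval of the difference was -0.66 to 0.85 and for Atf4 it was -0.12 to 0.21, so the spread left room for a sizeable difference between the media in Asns.

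Genes upstream of ATF4 were centred near 0. The counts of this list and the lists after it stand against 2.64% of all genes called lower and 2.59% higher in GCM LN18, and 0.708% lower and 0.807% higher in GCM U87-MG. Of 17 measured genes of the ISR sensors and the eIF2 machinery, 2 were lower and 0 higher in GCM LN18, and 1 was lower and 0 higher in GCM U87-MG, with medians of -0.00 and 0.00. In the mean of both media 3 were lower and 1 higher, against 2.47% and 2.34% of all genes. With the replicate number 1 was lower and 0 higher there. Eif2ak4, which encodes GCN2, and Eif2ak3, which encodes PERK, had log2 fold changes of -0.13 and -0.02 in GCM LN18 and -0.05 and -0.04 in GCM U87-MG. Impact, which holds GCN2 inactive by occupying its partner GCN1, had signals of 7.84, 7.73 and 7.82 on GCM LN18 arrays, 7.95, 8.03 and 7.96 on GCM U87-MG arrays and 8.39, 8.41 and 8.40 on untreated arrays. These were tight within each group, and Impact fell by 0.60 in GCM LN18 (SE 0.04, adjusted p = 0.000291 without and 0.00971 with the replicate number) and was 0.42 lower in GCM U87-MG (log2 fold change -0.42, SE 0.04, adjusted p = 0.00433 and 0.0803). Gcn1 had a log2 fold change of 0.19 in GCM LN18 (adjusted p = 0.0944 without and 0.323 with the replicate number). In GCM U87-MG that of Gcn1 was 0.22 (adjusted p = 0.0920 and 0.401), and it passed in neither. Ppp1r15b, the constitutive counterpart of Ppp1r15a, had -0.23 in GCM LN18 (adjusted p = 0.0285 and 0.173).

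Of 23 other reported ATF4 targets, 2 passed in GCM LN18 (1 higher, 1 lower) and 4 in GCM U87-MG (1 higher, 3 lower), with medians of -0.10 and -0.08. Eif4ebp1, a translational brake, had signals of 7.98, 8.28 and 8.36 on GCM LN18 arrays, 7.96, 7.91 and 8.14 on GCM U87-MG arrays and 9.03, 8.78 and 8.47 on untreated arrays, with log2 fold changes of -0.55 (adjusted p = 0.0595 without and 0.179 with the replicate number) and -0.76 (adjusted p = 0.0425 and 0.192). Bbc3, which encodes the death factor PUMA, fell by 0.46 in GCM LN18 (adjusted p = 0.00308 and 0.0318) and had -0.29 in GCM U87-MG (adjusted p = 0.0396 and 0.233). Jdp2 had -0.63 in GCM U87-MG (adjusted p = 0.0385 and 0.190). Kdm7a, a histone demethylase, was higher, with 0.33 in GCM LN18 (adjusted p = 0.0170 and 0.0975) and 0.30 in GCM U87-MG (adjusted p = 0.0486 without and 0.266 with the replicate number). Among 13 other cytosolic tRNA synthetases and their scaffold proteins, 2 were lower and 0 higher in each medium, with medians of -0.08 in GCM LN18 and -0.03 with GCM U87-MG. Yars1, the tyrosine enzyme, fell by 0.64 in GCM LN18 (adjusted p = 0.00436 and 0.0334) and had -0.56 in GCM U87-MG (adjusted p = 0.0197 and 0.128). Iars1, the isoleucine enzyme, had -0.38 in each medium (adjusted p = 0.0120 and 0.0793 in GCM LN18, and 0.0304 and 0.192 in GCM U87-MG).

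Amino acid sensing by mTORC1, the growth-promoting kinase complex, is a separate branch of the same supply control. Of its 26 measured genes 3 were lower and 0 higher in GCM LN18, and none was called in GCM U87-MG, where 6 had an unadjusted p under 0.05, with medians of -0.05 and -0.00. Flcn, a regulator of Rag GTPases, fell by 0.49 in GCM LN18 (adjusted p = 0.00487 and 0.0408). Rragc, a Rag GTPase, had -0.30 (adjusted p = 0.00983 and 0.0825) and Tsc1, an inhibitor of the pathway, -0.26 (adjusted p = 0.0464 and 0.199) in the same comparison. The 29 other amino acid transporters and enzymes had medians of -0.01 and 0.00, with 3 higher and 1 lower in GCM LN18 and 1 higher and 0 lower in GCM U87-MG. Slc7a2, the CAT2 arginine carrier of activated macrophages, was higher, opposite in direction to Slc7a1, with signals of 5.69, 5.81 and 5.54 on GCM LN18 arrays, 5.50, 5.68 and 5.68 on GCM U87-MG arrays and 5.19, 4.88 and 5.16 on untreated arrays. All GCM arrays lay above the untreated ones, and its log2 fold change was 0.60 in GCM LN18 (adjusted p = 0.00989 and 0.0541) and 0.54 in GCM U87-MG (adjusted p = 0.0377 and 0.191). The carriers Slc7a7 and Slc43a2 had 0.38 (adjusted p = 0.0142 and 0.0825) and 0.49 (adjusted p = 0.0271 and 0.106) in GCM LN18. Gclc, which makes the precursor of glutathione, had -0.66 in GCM LN18 (adjusted p = 0.0116 and 0.0589).

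ER chaperones and their regulators report mainly the other arms of the unfolded protein response. Their medians were 0.06 in GCM LN18 and 0.12 with GCM U87-MG over 21 genes, with 1 lower and 0 higher in GCM LN18 and none called in GCM U87-MG, where 6 had an unadjusted p under 0.05. Hspa5, the main ER chaperone BiP, had log2 fold changes of 0.21 and 0.27 in the 2 media and did not pass. Atf6, a sensor of that response, was the 1 gene called lower, at -0.29 in GCM LN18 (adjusted p = 0.0180 without and 0.110 with the replicate number). Herpud1 had the lowest log2 fold change of the list in GCM LN18, -0.74, and did not pass (adjusted p = 0.0560 and 0.166).

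**Figure D4:**
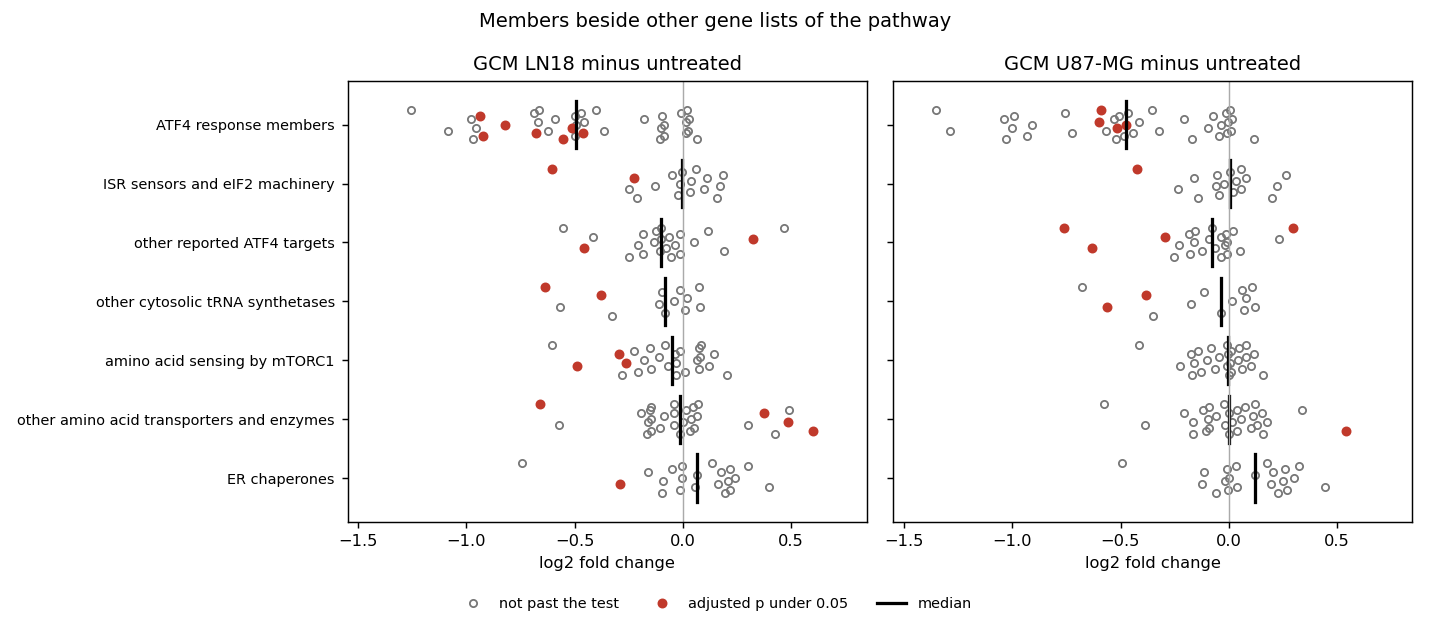
Log2 fold change (horizontal axis) of each measured gene of the ATF4 response members and 6 other lists (vertical axis), in GCM LN18 (left) and GCM U87-MG (right) against untreated microglia. Red dots passed the limma test at an adjusted p under 0.05 without the replicate number, open dots did not, and black bars are medians, which are -0.50 and -0.47 for the members and between -0.10 and 0.12 for the other lists.

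Several members have further probe sets, which differ in brightness and in the stretch of the transcript they read. The second probe set of Atf4 was dim (mean log2 signal 2.41) and gave 0.03 in GCM LN18 and -0.02 with GCM U87-MG, and a mean of both probe sets of Atf4 no longer passed without the replicate number (adjusted p = 0.0503 in GCM LN18, 0.0541 in GCM U87-MG). Second probe sets of Aars1, Nars1, Sars1, Nupr1 and Phgdh gave log2 fold changes of -0.67, -0.49, -0.54, -0.73 and -0.78 in GCM LN18, on the same side as the brightest ones. Other probe sets differed more from the brightest. The next 2 of Eprs1, almost as bright, gave -0.18 and -0.26 in GCM U87-MG where the brightest gave -0.44, and the second of Gpt2, a dim one, gave -0.03 in GCM LN18 where the brightest gave -0.67. The third of Gpt2, about as dim, gave -0.33 there and passed the limma test over all probe sets (adjusted p = 0.0133 without and 0.0985 with the replicate number). Second probe sets of Aars1 (adjusted p = 0.0478 and 0.161), Nars1 (0.0470 and 0.168) and Shmt2 (0.0332 and 0.178) also passed in GCM LN18. Other calls were lost in the limma test over all probe sets. Slc7a5 no longer passed in GCM LN18 (adjusted p = 0.0514 and 0.164), nor did Ddit3 in GCM U87-MG (adjusted p = 0.0527 and 0.241). The dimmer probe set of Aldh18a1 passed the test over all probe sets in both media (-0.47 in GCM LN18, adjusted p = 0.0352 without and 0.138 with the replicate number, and -0.54 in GCM U87-MG, adjusted p = 0.0463 and 0.232), which its brighter one did not. Sesn2, which restrains mTORC1, gave -0.18 by its brighter probe set and -0.25 by the other in GCM LN18, and -0.32 and -0.35 in GCM U87-MG, and the dimmer one passed in GCM LN18 (adjusted p = 0.0496 and 0.217) and in GCM U87-MG (adjusted p = 0.0357 and 0.233).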

How the data were processed

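The authors deposited 1 table of log2 signals per probe set, for 9 arrays, brought to like medians. How background was corrected, arrays normalized and probes summarised is not given for these arrays in the sources used here, where RMA is named for other data sets, and the sources name R, Bioconductor and limma. The table holds 45141 probe sets, of which 104 controls, 551 with several symbols and 15588 unnamed here were left out. Of the 28898 with 1 symbol, 28689 took their current symbol through the gene identifier. The brightest probe set over 9 arrays stood for a gene, which gave 17097 genes. Precision is limited by the number of arrays (3 per group), which have no depth of reads. The design text states that the 3 replicates came from separate cortical cultures.

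Linear models with 1 mean per group over all 9 arrays were tested with limma 3.58.1 (R 4.3.3) by its moderated statistics, with Benjamini-Hochberg adjustment over all genes and calls at an adjusted p under 0.05. The 4 comparisons were GCM LN18 and GCM U87-MG against untreated, their mean against untreated, and GCM LN18 against GCM U87-MG. Within-group deviations of arrays with the same replicate number correlated at -0.720 to -0.0591, below 0 as equal replicate means force on average, so this check could not show pairing. A blocked fit on the replicate number was added because of the equal means, and its values stand beside the calls. Data were also simulated with independent normal noise, equal replicate means and changes in GCM LN18 alone. There the fit without the number gave too many unchanged genes an unadjusted p under 0.05, and the fit with it did not.

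Values of each array are given for Atf4, Ddit3, every member past the test in any comparison, and further members by the smallest unadjusted p of the mean of both media up to 16. From each other list, up to 3 higher and 3 lower genes past the test qualified, and some of these are described, with genes of known role added. The members and the lists (ISR sensors and eIF2 machinery, other reported ATF4 targets, other cytosolic tRNA synthetases, amino acid sensing by mTORC1, other amino acid transporters and enzymes, ER chaperones) were chosen with earlier results of these data known. Promoter windows and coordinates are RefSeq's for GRCm38.p6. Alternatives were the replicate block, other variance priors, a filter on dim genes, other choices of probe set, the groups in the fit, 2 further normalizations, array weights and leaving out arrays.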

Additional observations from a re-analysis of the deposited data

How the results depend on the processing

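Without the replicate number, 7 members were lower in GCM LN18, 4 in GCM U87-MG and 12 in the mean of both media. With the replicate block these were 3, 0 and 3. Whether a replicate number pairs arrays beyond their equal means is not given in the sources. Counting a member called when any of its probe sets passed gave 12, 5 and 17 (3.08%, 0.678% and 2.9% of all genes called lower). Testing only genes above the median level, 30 of them members, gave 10, 5 and 16 (6.07%, 1.52% and 5.28% of the genes kept). In GCM U87-MG the mean of all probe sets gave 2 (0.638% of all genes) and a fit on the compared arrays alone gave 1 (0.0819%). Array weights gave 7 in the mean of both media (1.92% of all genes). Leaving out arrays, singly or all 3 of a replicate number together (omitting 3 together was chosen after the data were seen), gave 0 to 12 members in GCM LN18, 0 to 7 in GCM U87-MG and 0 to 20 in the mean of both media. The highest counts were those without untreated replicate 3 (12, 7 and 20, against 1.97%, 0.667% and 2.09% of all genes called lower). In GCM LN18 the count was 4 without untreated replicate 1 and 3 without GCM LN18 replicate 1 or 2. In GCM U87-MG it was 0 without GCM U87-MG replicate 1 or 3, 1 without GCM U87-MG replicate 2, GCM LN18 replicate 2 or untreated replicate 1 or 2, and 2 without GCM LN18 replicate 3. In the mean of both media it was 4 without untreated replicate 1, 5 without untreated replicate 2 or GCM U87-MG replicate 1, 6 without GCM LN18 replicate 1 or 2, and 7 without GCM LN18 replicate 3. Without all arrays of replicate 1, 2 or 3, the counts were 0, 1 and 5 for GCM LN18, 0, 0 and 2 for GCM U87-MG and 0, 1 and 5 for the mean of both media. Over all settings that left out arrays, 0.333% to 2.5% of all genes were called lower in GCM LN18, 0.0117% to 0.667% in GCM U87-MG and 0.158% to 2.18% in the mean of both media. The cause was not tested. No alternative called a member higher or different between the media. Over the 48 results of 16 members in 3 comparisons, 23 were called without the replicate number, and in their 471 alternatives the call was kept in 285 and lost in 186. The other 25 gained a call in 34 of 518 alternatives, and 0 turned the direction.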
